A study of Mus musculus with 9 samples.

Results

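The matrix metalloproteinases (Mmp genes), the ADAMTS proteases (Adamts genes) and the tissue inhibitors of metalloproteinases (Timp genes) were followed as 1 set in 3T3-L1 cells, an established mouse fibroblast line that forms adipocytes in a hormonal medium. Members were all protein-coding rows of the gene table whose name starts with Mmp, Adamts or Timp followed by a number, and 45 of 54532 genes met this rule. There were 22 Mmp, 19 Adamts and 4 Timp genes. Poly A enriched RNA was sequenced from 3 groups with n = 3 libraries each. The Undifferentiated group was the untreated control, from cells kept confluent in DMEM with calf serum. The methods do not say how long this group was kept before harvest. In the Differentiated group, cells that had been confluent for 3 days were given a differentiation medium with added lysine. It held 10 μg/mL insulin, 1 μM rosiglitazone, 1 μM dexamethasone and 0.5 mM IBMX, a phosphodiesterase inhibitor. In the Lysfree group, the same hormones were given in a medium to which no lysine was added. RNA of both groups was taken after the differentiation period. The medium change also brought another basal DMEM and fetal bovine serum. Hormones, serum, basal medium and any difference in time in culture cannot be told apart in comparisons with the Undifferentiated group. All 9 libraries came from a single cell line, and no source says whether the replicates of a group came from separate cultures. The spread between libraries, on which the p-values rest, may therefore be technical. For Differentiated vs Undifferentiated, edgeR took this spread from a trend over all genes and not from each gene by itself.

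These proteins remodel the extracellular matrix that a preadipocyte builds around itself and that a rounding, lipid-filling adipocyte has to loosen and replace. Matrix metalloproteinases are zinc-dependent enzymes that are made as inactive proenzymes, are either secreted or held at the cell surface, and cleave collagens, gelatin, laminin and fibronectin. ADAMTS proteases are secreted relatives with thrombospondin repeats that cut proteoglycans such as versican and aggrecan, trim procollagens or act at fibrillin microfibrils. The Timp proteins bind the active site of metalloproteinases and block it, and Timp2 together with the membrane-type enzyme Mmp14 also forms the surface complex in which pro-Mmp2 is activated. Transcript levels say nothing of proenzyme activation, which was not measured.

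Total counts ranged from 15880144 to 21806693 per library. Levels are given in FPKM, fragments per kilobase of gene scaled to the library total. FPKM allows for gene length and depth, but not for shifts in RNA composition between groups, for which the edgeR tests used TMM scaling. The library Lysfree 1 stood apart from Lysfree 2 and 3. CPM stands for counts scaled by library size alone, with no correction for length. Among 12330 genes that averaged 1 CPM or more in the Lysfree group, 1970 (16%) lay more than 1.5-fold from the mean of Lysfree 2 and 3 in Lysfree 1. Of the 23 members at that level, 4 did so, namely Adamts10, Mmp11, Mmp17 and Mmp23, and all 4 were lower in Lysfree 1. Member results whose call, sign or size, by over 1.5-fold, changed without this library are also given without it. Summed FPKM of 6 preadipocyte and fibroblast markers (Col1a1, Col1a2, Pdgfra, Pdgfrb, Thy1 and Vim) ranged from 3772 to 4120 in Undifferentiated, 991 to 996 in Differentiated and 1461 to 1523 in Lysfree libraries, with 6 of 6 detected. Summed FPKM of 6 adipocyte markers (Fabp4, Adipoq, Plin1, Cebpa, Pparg and Lpl) ranged from 267 to 331, 4047 to 4323 and 224 to 297, again with 6 of 6 detected. The preadipocyte and fibroblast list differed between all 3 groups without overlap. The adipocyte list set Differentiated libraries apart and overlapped between Undifferentiated and Lysfree. The part of both lists in the results on proteases was not tested. In bulk RNA, fewer cells of a type and less RNA per cell cannot be told apart. Leukocyte markers Adgre1 and Itgam, the neutrophil marker S100a9 and the epithelial marker Epcam had 0 counts in all 9 libraries. The macrophage and leukocyte list had 3 of 6 genes detected above 3 counts, with summed FPKM of 17.3 to 21.0, 5.59 to 5.72 and 8.02 to 9.32, and its highest genes were Lyz2 and Cd14. Sox9 carried nearly all of the chondrocyte list (26.7 to 32.4, 8.08 to 9.41 and 26.9 to 29.0), whose cartilage marker Acan was at 0 in all 9 libraries. The endothelial, epithelial, muscle and neutrophil lists stayed at or below a summed FPKM of 2.29 in each library.

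Most of the expressed matrix proteases and the main inhibitor Timp2 were lower in Differentiated than in Undifferentiated cells. Without lysine, Timp2, Mmp2 and Mmp14 were higher than with it, and Mmp3, Mmp9 and Adamts12 were lower. A gene was called when its edgeR adjusted p (Benjamini-Hochberg, over all genes tested) was under 0.05 and its change at least 2-fold. In Differentiated vs Undifferentiated, 20 of the 35 members tested were called, 1 higher and 19 lower, against 21.8% of all 24402 genes tested (10.4% higher and 11.4% lower). Their median log2 fold change was -1.63, beside 0.02 over all genes. In Lysfree vs Undifferentiated, 18 of 38 members were called, 1 higher and 17 lower, against 14.3% of all genes (5.52% higher and 8.76% lower), and the median was -0.96 beside -0.02. In Lysfree vs Differentiated, 18 of 37 members were called, 11 higher and 7 lower, against 18.7% of all genes (8.14% higher and 10.5% lower), and the median was 0.67 beside -0.06. The 3 comparisons share libraries, so their calls are given side by side and not as separate evidence. A mean of at least 1 CPM in 1 or more groups was reached by 27 members, 12 Mmp, 11 Adamts and 4 Timp, and these are described by name. Among genes at that level 32.4%, 21.6% and 28.2% were called in the 3 comparisons, and among the 27 members 19, 18 and 17. On average over libraries, 20 of the 27 were highest in the Undifferentiated group, 4 in Differentiated and 3 in Lysfree. The Lysfree mean lay between the other groups for 14 of them, below both for 10 and above both for 3. No share over all genes stands beside these orders of groups, which describe the members only.

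**Figure D1:**
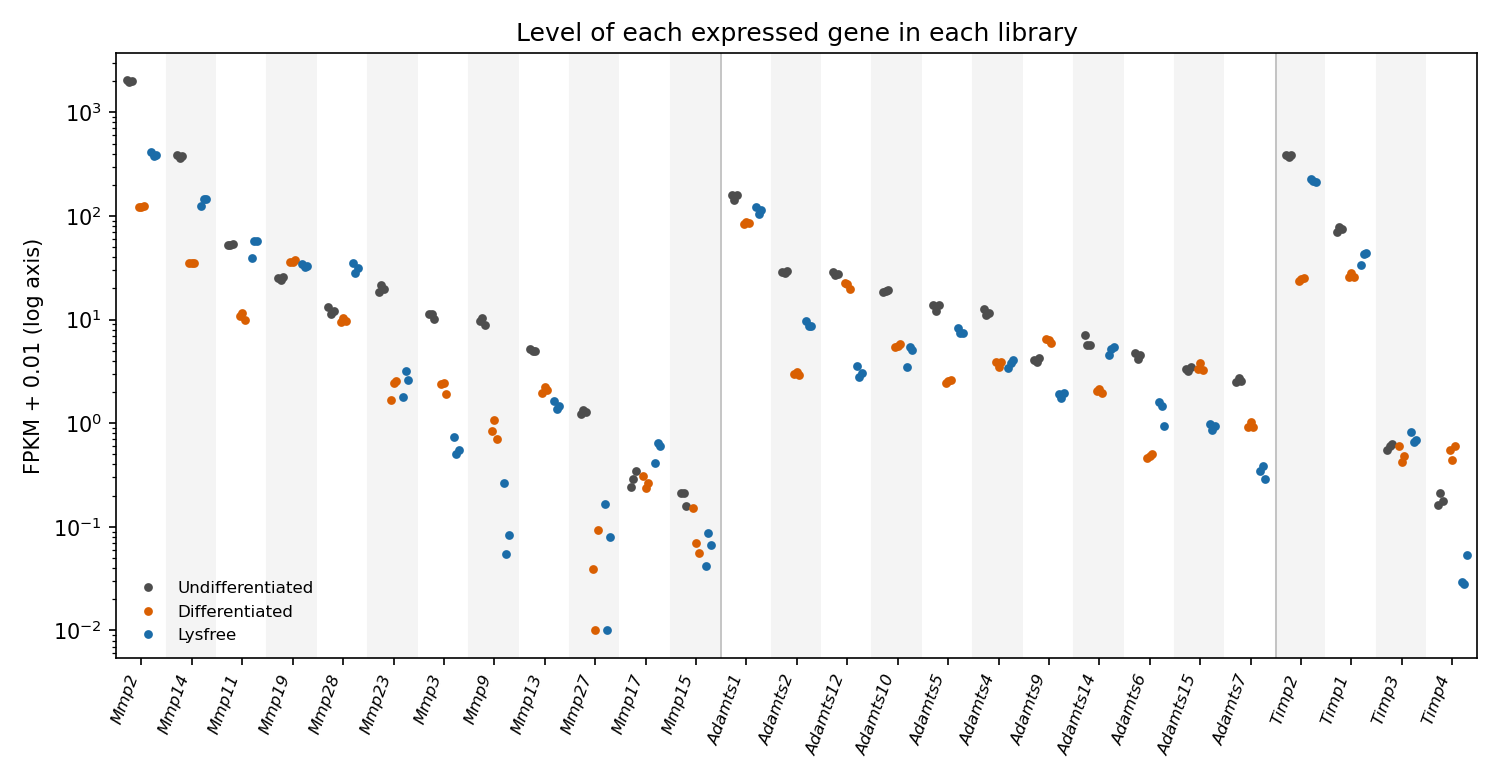
FPKM plus 0.01 (log axis) of the 27 expressed Mmp, Adamts and Timp genes in each of 9 libraries, with 3 points per group coloured by group and genes ordered by level within each family. Mmp2 is the most abundant gene, near 2009 FPKM in Undifferentiated libraries, 123 in Differentiated and 394 in Lysfree, and the Lysfree points of Mmp9, Adamts12 and Timp4 lie below those of both other groups.

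**Figure D2:**
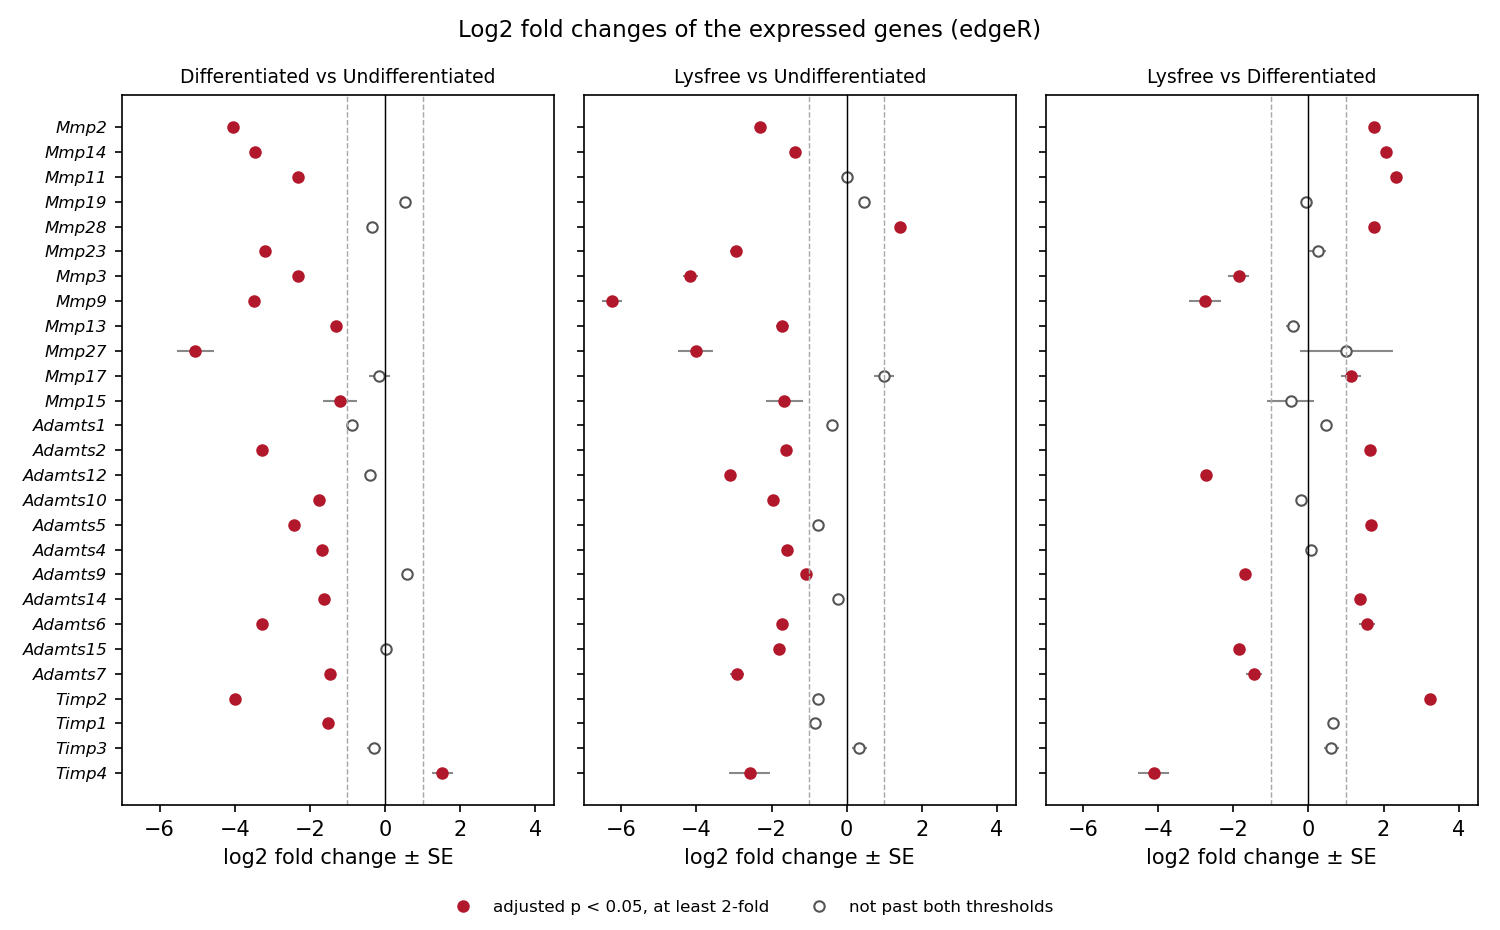
Log2 fold change with its standard error (edgeR) of the same 27 genes in the 3 comparisons, which share libraries. Filled points have an adjusted p under 0.05 and at least a 2-fold change, and dashed lines mark 2-fold. Filled points of the first panel lie left of 0 except for Timp4, and those of the third panel fall on both sides. The Differentiated counts of Mmp27 were at the detection floor, so its points against that group are no measure of size.

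A single stretch of chromosome 9 holds 9 of the 22 Mmp members. It runs from 7272514 to 7699585 (GRCm38), a span of 427072 bp, and contains no other protein-coding gene of the table. Mmp3, Mmp13 and Mmp27 were expressed from it, and Mmp7, Mmp10 and Mmp20 had 0 counts in all 9 libraries. The other members there, Mmp1b, Mmp8 and Mmp12, reached at most 1 count in a library. RefSeq promoter windows (GRCm38.p6, 250 bases before to 50 after the start) were matched by symbol for 31 of the 45 members, among them all 9 of this stretch. Both strands of each window were searched for TGANTCA, the letters of an AP-1 site, for TATAAA, for GGGCGG, a GC box, and for CCAAT boxes. The 31 members had 34 windows, and a member was counted when any of its windows held a match. The percentages over all genes are per window. Mmp7, Mmp12 and Mmp23 had 2 windows each, and Mmp12 held the AP-1 letters and TATAAA in only 1 of them. The AP-1 letters occurred in 7 of the 9 members of the stretch and in 0 of the 22 members from elsewhere, against 7.81% of all 32851 windows. TATAAA occurred in 8 of the 9 and 2 of the 22, against 13.6%, and both motifs together in 7 of the 9, against 1.54%. GGGCGG showed the opposite split, in 0 of the 9 and 18 of the 22, against 35.7%, while CCAAT was in 3 and 6, against 37.4%. Neighbouring genes of a duplicated family share sequence and are not independent examples. The window of Mmp27 held a CCAAT and none of the other 3 motifs. Members with no window were Adamts4, Adamts5, Adamts6, Adamts7, Adamts8, Adamts10, Adamts15, Adamts16, Adamts19, Mmp2, Mmp9, Mmp16, Mmp17 and Mmp19. The windows of Mmp3 (chr9:7445572-7445871, plus strand) and Mmp13 (chr9:7272264-7272563, plus strand) are shown as the expressed cluster genes that carry both motifs, and those of Mmp14 (chr14:54431348-54431647, plus strand), Timp2 (chr11:118355362-118355661, minus strand) and Mmp28 (chr11:83462991-83463290, minus strand) as members from elsewhere with GC boxes. Each is written 5′ to 3′ from RefSeq, with matches to the 4 motifs on either strand in capitals.
Mmp3: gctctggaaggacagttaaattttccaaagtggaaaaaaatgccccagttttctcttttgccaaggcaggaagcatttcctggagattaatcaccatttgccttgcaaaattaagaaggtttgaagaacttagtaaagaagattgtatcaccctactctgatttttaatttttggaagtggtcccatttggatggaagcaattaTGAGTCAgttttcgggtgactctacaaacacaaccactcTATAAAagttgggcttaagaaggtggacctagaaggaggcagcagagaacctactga
Mmp13: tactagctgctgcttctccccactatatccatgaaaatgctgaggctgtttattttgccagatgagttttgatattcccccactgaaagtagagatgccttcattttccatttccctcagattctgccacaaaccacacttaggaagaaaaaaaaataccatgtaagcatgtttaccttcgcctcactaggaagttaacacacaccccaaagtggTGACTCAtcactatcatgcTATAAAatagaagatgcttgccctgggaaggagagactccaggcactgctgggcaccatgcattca
Mmp14: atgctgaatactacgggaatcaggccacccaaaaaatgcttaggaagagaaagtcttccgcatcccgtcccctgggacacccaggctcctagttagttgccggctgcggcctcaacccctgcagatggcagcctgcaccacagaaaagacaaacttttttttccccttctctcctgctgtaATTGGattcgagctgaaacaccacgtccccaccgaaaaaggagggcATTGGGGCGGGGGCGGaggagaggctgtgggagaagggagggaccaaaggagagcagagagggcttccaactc
Timp2: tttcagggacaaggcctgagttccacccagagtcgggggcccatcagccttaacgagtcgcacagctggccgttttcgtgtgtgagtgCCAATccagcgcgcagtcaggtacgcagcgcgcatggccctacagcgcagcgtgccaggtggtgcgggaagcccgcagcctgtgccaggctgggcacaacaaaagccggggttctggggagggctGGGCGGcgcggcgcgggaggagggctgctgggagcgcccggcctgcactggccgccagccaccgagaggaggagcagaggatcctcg
Mmp28: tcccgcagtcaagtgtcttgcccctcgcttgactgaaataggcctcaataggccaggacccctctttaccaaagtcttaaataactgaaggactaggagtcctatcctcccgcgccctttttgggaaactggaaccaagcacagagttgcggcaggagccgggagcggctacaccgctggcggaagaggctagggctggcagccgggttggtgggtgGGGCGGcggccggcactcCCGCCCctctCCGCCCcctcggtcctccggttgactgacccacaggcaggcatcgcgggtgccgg
A match describes letters in the window, and no binding was measured. RefSeq and the gene table do not place every start at the same base. For the minus-strand genes Mmp11 and Adamts20, the windows end at 75932752 and 94404600, whereas the genes of the table reach 75936496 and 94465418. Both windows are counted among the members with GC boxes, although they lie inside the genes of the table.

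The activation trio of Mmp2, Mmp14 and Timp2 fell in differentiation medium with lysine, and all 3 genes were higher without lysine than with it. Mmp2 (gelatinase A, chromosome 8, 92827291 to 92853420), which cleaves denatured collagen and type IV collagen, had 2030.2, 1984 and 2013 FPKM in the Undifferentiated libraries, 122, 122 and 126 in Differentiated and 413, 379 and 391 in Lysfree. The groups did not overlap, and the Lysfree libraries stood between the others but nearer to Differentiated. The log2 fold change was -4.05 (SE 0.05) in Differentiated vs Undifferentiated, with an adjusted p too small for edgeR to hold, and -2.30 in Lysfree vs Undifferentiated (SE 0.08, edgeR adjusted p = 1.1e-20). Lysfree cells had 3.34-fold more Mmp2 than Differentiated cells (log2 1.74, SE 0.08, edgeR adjusted p = 1.1e-13). Mmp14 (MT1-MMP, chromosome 14, 54431612 to 54445364), the surface collagenase that activates pro-Mmp2, was at 383, 364 and 382 FPKM in Undifferentiated libraries, 34.8, 35.3 and 34.9 in Differentiated and 125, 145 and 146 in Lysfree. Its order of groups was that of Mmp2, again without overlap, and Lysfree cells had 4.15-fold more than Differentiated cells (log2 2.05, SE 0.09, edgeR adjusted p = 6.7e-14). Against Undifferentiated cells, Mmp14 changed by -3.45 (SE 0.05) with lysine and by -1.39 (SE 0.09) without it on the log2 scale. Timp2 (chromosome 11, 118301069 to 118355740) was at 387, 372 and 387 FPKM in Undifferentiated libraries, 23.5, 24.4 and 25.3 in Differentiated and 226, 219 and 212 in Lysfree. Timp2 fell by 3.99 on the log2 scale in Differentiated vs Undifferentiated (SE 0.05), and the Lysfree libraries all lay above the highest Differentiated library and below the lowest Undifferentiated library. Lysfree cells had 9.39-fold more Timp2 than Differentiated cells (log2 3.23, SE 0.09, edgeR adjusted p = 3.9e-17), the largest rise of an expressed member in this comparison. Against Undifferentiated cells the Lysfree difference of Timp2 was -0.75 (SE 0.09, edgeR adjusted p = 1.2e-08), short of 2-fold. The ratio of Timp2 to Mmp2 FPKM was 0.190 ± 0.00239 (SD, n = 3) in Undifferentiated, 0.198 ± 0.00375 in Differentiated and 0.556 ± 0.0192 in Lysfree cells. The ratio of Timp2 to Mmp14 was 1.01 ± 0.00654, 0.697 ± 0.0247 and 1.59 ± 0.189 in the same order.

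Mmp9 (gelatinase B, chromosome 2, 164940780 to 164955850) went the other way from Mmp2 when lysine was left out. It was at 9.69, 10.4 and 8.84 FPKM in Undifferentiated libraries, 0.84, 1.06 and 0.7 in Differentiated and 0.257, 0.0444 and 0.0728 in Lysfree. The Lysfree values come from 16, 3 and 5 counts, with the highest in Lysfree 1. The log2 change of Mmp9 was -3.49 in Differentiated vs Undifferentiated (SE 0.12) and -6.24 in Lysfree vs Undifferentiated (SE 0.26), the largest fall of an expressed member there. In Lysfree vs Differentiated the change was -2.75 (SE 0.42, edgeR adjusted p = 1.5e-05). Without Lysfree 1 these last changes were -7.29 and -3.80. Among the membrane-type enzymes other than Mmp14, Mmp15 (MT2-MMP) and Mmp17 (the GPI-anchored MT4-MMP) were low in all groups. Mmp15 had 3 to 24 counts per library and Mmp17 had 27 to 81. Mmp15 was at 0.2, 0.203 and 0.15 FPKM in Undifferentiated libraries, 0.144, 0.0597 and 0.0459 in Differentiated and 0.0316, 0.0777 and 0.0573 in Lysfree. It was lower in Differentiated vs Undifferentiated cells (log2 -1.20, SE 0.46, edgeR adjusted p = 0.02), a call that was lost by DESeq2 (adjusted p = 0.096), by limma on log FPKM with either pseudocount and when Undifferentiated 1 (-1.14), Undifferentiated 2 (-1.13), Differentiated 2 (-1.0) or Differentiated 3 (-0.93) was left out. Without Differentiated 1, the library with the highest Mmp15 of its group, the change was -1.81. In Lysfree vs Undifferentiated Mmp15 was also lower (log2 -1.66, SE 0.49, edgeR adjusted p = 0.0068), a call that limma on log FPKM did not make with either pseudocount. Mmp17 was at 0.234, 0.282 and 0.34 FPKM in Undifferentiated libraries, 0.303, 0.227 and 0.253 in Differentiated and 0.404, 0.642 and 0.592 in Lysfree, where Lysfree 1 was the lowest. It was higher in Lysfree vs Differentiated cells (log2 1.14, SE 0.26, edgeR adjusted p = 0.0012), a call that limma on log FPKM did not make. In Lysfree vs Undifferentiated its change was 1.00 with an edgeR adjusted p of 0.0029, just short of 2-fold, and without Lysfree 1 it passed at 1.15, as it did without Undifferentiated 3 at 1.13. The other membrane-type members, Mmp16, Mmp24 and Mmp25, reached at most 3 counts in a library.

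Of the stromelysins and the collagenase, Mmp3 and Mmp13 were lower in both differentiation groups than in Undifferentiated cells, and Mmp11 was lower in Differentiated than in both other groups. Mmp3 (stromelysin-1, chromosome 9, 7445822 to 7455975), a broad matrix protease that also activates other proenzymes, was at 11.2, 11.4 and 10.1 FPKM in Undifferentiated libraries, 2.4, 2.41 and 1.89 in Differentiated and 0.727, 0.495 and 0.544 in Lysfree. All Lysfree libraries were below all Differentiated ones. The log2 change of Mmp3 was -2.31 (SE 0.13) with lysine, -4.16 (SE 0.21) without it, and -1.86 in Lysfree vs Differentiated (SE 0.27, edgeR adjusted p = 6.6e-06). Mmp13 (collagenase-3, chromosome 9, 7272514 to 7283331), the main interstitial collagenase of mice, was at 5.16, 5 and 4.93 FPKM in Undifferentiated, 1.93, 2.21 and 2.06 in Differentiated and 1.64, 1.37 and 1.45 in Lysfree libraries. Both differentiation groups were below the Undifferentiated libraries, with log2 changes of -1.31 (SE 0.14) and -1.71 (SE 0.18), while their own difference did not pass the test (log2 -0.42, SE 0.19, edgeR adjusted p = 0.099). Mmp27, a stromelysin-like gene of the same stretch (7571396 to 7581885), had 57, 64 and 45 counts in Undifferentiated libraries, 1, 0 and 3 in Differentiated and 6, 0 and 3 in Lysfree. It was at least 16.2-fold lower in Differentiated than in Undifferentiated cells when the former are set to the floor of 3 counts per library, and the Lysfree change was -4.02 (SE 0.47, edgeR adjusted p = 1.4e-08), or -5.04 without Lysfree 1. Mmp11 (stromelysin-3, chromosome 10, 75923222 to 75936496), a stromal enzyme that is activated inside the cell by furin, was at 52.3, 52.1 and 54 FPKM in Undifferentiated libraries, 10.9, 11.5 and 9.92 in Differentiated and 39.1, 57.9 and 57.4 in Lysfree. Lysfree 1 was below every Undifferentiated library, and Lysfree 2 and 3 were above every one. Mmp11 fell by 2.32 on the log2 scale with lysine (SE 0.07) and was 5-fold higher in Lysfree than in Differentiated cells (log2 2.32, SE 0.13, edgeR adjusted p = 7.6e-12). The change in Lysfree vs Undifferentiated was 0.01 (SE 0.12, edgeR adjusted p = 0.96), and its sign depended on the processing. An exon of Chchd10 on the opposite strand covers 5.58% of the exonic length of Mmp11, and Chchd10 was at 1.38, 3.38 and 3.04 FPKM in the 3 groups.

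Mmp28 was the single Mmp gene called higher in Lysfree vs Undifferentiated cells. Mmp28 (epilysin, chromosome 11, 83440768 to 83463071), a secreted enzyme known from epithelia and wound repair, was at 13.2, 11.4 and 12 FPKM in Undifferentiated libraries, 9.44, 10.4 and 9.68 in Differentiated and 35, 28.3 and 31.3 in Lysfree. The lowest Lysfree library was more than 2-fold above the highest of the other 6. Mmp28 was 2.67-fold higher than in Undifferentiated (log2 1.42, SE 0.11, edgeR adjusted p = 1.0e-12) and 3.34-fold higher than in Differentiated cells (log2 1.74, SE 0.10, edgeR adjusted p = 1.2e-11). The gene 1700020L24Rik lies on the opposite strand, its exons cover 12.0% of the exonic length of Mmp28, and its own FPKM was 10.5, 7.48 and 19.8 in the 3 groups. Strand was not given for the counting, so reads of this overlap cannot be assigned to either gene. Mmp19, which cleaves basement membrane components, was at 25.1, 23.8 and 26 FPKM in Undifferentiated libraries, 36, 35.9 and 38 in Differentiated and 34.5, 32.4 and 32.9 in Lysfree. It was the single expressed Mmp gene that lay above the Undifferentiated libraries in both other groups, by 0.53 (SE 0.06, edgeR adjusted p = 7.4e-18) and 0.46 (SE 0.10, edgeR adjusted p = 3.0e-04) on the log2 scale, in both cases under 2-fold. Tmem198b on the opposite strand covers 22.3% of its exonic length, at 5.51, 2.83 and 3.35 FPKM. Mmp23, a small membrane-anchored member without the usual hemopexin domain, was at 18.4, 21.7 and 19.9 FPKM in Undifferentiated libraries, 1.66, 2.41 and 2.57 in Differentiated and 1.78, 3.18 and 2.58 in Lysfree. Its log2 changes were -3.19 (SE 0.11) with lysine and -2.94 (SE 0.16) without it, and the 2 differentiation groups overlapped (log2 0.25, SE 0.22, edgeR adjusted p = 0.43).

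The ADAMTS proteoglycanases, which cut versican, aggrecan and related proteins, were called in different comparisons. Adamts1 (chromosome 16, 85793827 to 85803113) was the most abundant ADAMTS gene of all 3 groups, at 159, 144 and 161 FPKM in Undifferentiated libraries, 82.8, 87.8 and 85.5 in Differentiated and 122, 105 and 114 in Lysfree. Its differences of -0.88, -0.39 and 0.48 on the log2 scale (Differentiated vs Undifferentiated, Lysfree vs Undifferentiated, Lysfree vs Differentiated) all had an adjusted p under 0.05 and were all under 2-fold, although the groups did not overlap. Adamts5 (chromosome 16, 85856173 to 85901828), the neighbour of Adamts1 and the main aggrecanase of mouse cartilage, was at 13.9, 12.2 and 14 FPKM in Undifferentiated libraries, 2.45, 2.55 and 2.61 in Differentiated and 8.25, 7.41 and 7.35 in Lysfree. It fell by 2.42 on the log2 scale with lysine (SE 0.07) and was 3.16-fold higher in Lysfree than in Differentiated cells (log2 1.66, SE 0.10, edgeR adjusted p = 2.2e-11). Adamts4, the other classical aggrecanase, was at 12.8, 11.1 and 11.5 FPKM in Undifferentiated, 3.9, 3.46 and 3.85 in Differentiated and 3.38, 3.8 and 4.09 in Lysfree libraries. It fell to the same range in both differentiation groups, with log2 changes of -1.69 (SE 0.08) and -1.60 (SE 0.12).

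Adamts9 and Adamts15 were called lower in Lysfree than in both other groups. Adamts9, which cuts versican and aggrecan, was at 4.06, 3.93 and 4.25 FPKM in Undifferentiated libraries, 6.47, 6.41 and 6 in Differentiated and 1.89, 1.74 and 1.96 in Lysfree. It stood above the Undifferentiated level with lysine (log2 0.60, SE 0.06, edgeR adjusted p = 5.2e-20, under 2-fold) and was called lower without it (log2 -1.08, SE 0.11, edgeR adjusted p = 1.4e-09), a call that limma on log2(FPKM + 1) did not make. Lysfree vs Differentiated gave -1.69 (SE 0.10, edgeR adjusted p = 1.3e-11). Adamts15 was at 3.32, 3.17 and 3.51 FPKM in Undifferentiated, 3.3, 3.78 and 3.27 in Differentiated and 0.983, 0.855 and 0.93 in Lysfree libraries. The Undifferentiated and Differentiated libraries overlapped (log2 0.02, SE 0.08, edgeR adjusted p = 0.82), and Lysfree cells had 3.58-fold less than Differentiated cells (log2 -1.84, SE 0.13, edgeR adjusted p = 1.6e-10).

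Among the ADAMTS genes, Adamts12 had the largest fall in both comparisons of Lysfree cells. Adamts12 and Adamts7 are close relatives that cleave cartilage oligomeric matrix protein, Comp. Adamts12 (chromosome 15, 11064790 to 11349231) was at 28.7, 27 and 27.3 FPKM in Undifferentiated libraries, 22.5, 22 and 19.9 in Differentiated and 3.58, 2.76 and 3.02 in Lysfree. The first 2 groups differed by -0.39 on the log2 scale (SE 0.05, edgeR adjusted p = 6.0e-13), under 2-fold, while every Lysfree library lay far below both. Lysfree cells had 8.59-fold less than Undifferentiated (log2 -3.10, SE 0.11, edgeR adjusted p = 6.6e-21) and 6.59-fold less than Differentiated cells (log2 -2.72, SE 0.11, edgeR adjusted p = 1.6e-14). Adamts7 was at 2.51, 2.71 and 2.54 FPKM in Undifferentiated, 0.916, 1.02 and 0.907 in Differentiated and 0.335, 0.376 and 0.279 in Lysfree libraries. It was lower with lysine (log2 -1.48, SE 0.13), lower still without it (-2.92, SE 0.19), and called lower in Lysfree vs Differentiated (log2 -1.46, SE 0.21, edgeR adjusted p = 9.2e-06). Exons of Tbc1d2b on the opposite strand cover 1.94% of the exonic length of Adamts7. Tbc1d2b was at 38.7, 7.68 and 11 FPKM in Undifferentiated, Differentiated and Lysfree cells, above Adamts7 in each. Strand was not given for the counting, and the part of this overlap in the Adamts7 values was not tested. Comp itself stayed below 1 FPKM in every library.

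The procollagen N-proteinases, which remove the amino-terminal propeptides of fibrillar procollagens, were higher without lysine than with it. Adamts2 (chromosome 11, 50602084 to 50807573) was at 28.5, 28.2 and 29.2 FPKM in Undifferentiated libraries, 3, 3.11 and 2.91 in Differentiated and 9.66, 8.64 and 8.74 in Lysfree. Its log2 changes against Undifferentiated cells were -3.28 (SE 0.06) and -1.62 (SE 0.10), and it was 3.13-fold higher in Lysfree than in Differentiated cells (edgeR adjusted p = 2.3e-11). Adamts14 was at 7.09, 5.68 and 5.67 FPKM in Undifferentiated, 2.01, 2.12 and 1.93 in Differentiated and 4.52, 5.22 and 5.39 in Lysfree libraries, with Undifferentiated 1 above the rest. The Lysfree libraries were all below the Undifferentiated ones, but this difference did not pass the test (log2 -0.24, SE 0.13, edgeR adjusted p = 0.18), whereas Lysfree vs Differentiated did (log2 1.38, SE 0.13, edgeR adjusted p = 2.2e-08). The third enzyme of this kind, Adamts3, had 0 counts in all 9 libraries.

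The pair Adamts6 and Adamts10, which act at fibrillin microfibrils, fell in both differentiation groups, and Adamts6 was higher without lysine than with it. Adamts6 was at 4.77, 4.19 and 4.55 FPKM in Undifferentiated libraries, 0.448, 0.468 and 0.5 in Differentiated and 1.58, 1.47 and 0.938 in Lysfree, where Lysfree 3 was the lowest. It fell by 3.28 on the log2 scale with lysine (SE 0.12) and was 2.94-fold higher in Lysfree than in Differentiated cells (log2 1.56, SE 0.20, edgeR adjusted p = 1.7e-06). Adamts10 was at 18.3, 18.8 and 19.3 FPKM in Undifferentiated, 5.45, 5.52 and 5.86 in Differentiated and 3.47, 5.45 and 5.1 in Lysfree libraries, with Lysfree 1 the lowest. Its log2 changes against Undifferentiated cells were -1.77 (SE 0.07) and -1.95 (SE 0.13), and Lysfree vs Differentiated did not pass the test (log2 -0.20, SE 0.14, edgeR adjusted p = 0.33, or -0.04 without Lysfree 1). Whether the 2 genes differ in this response was not tested.

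Among the inhibitors, Timp1 had the order of groups of Timp2, whereas Timp3 was highest in Lysfree and Timp4 in Differentiated cells. Timp1 (chromosome X), a secreted inhibitor that binds pro-Mmp9, was at 69.8, 78.1 and 74.4 FPKM in Undifferentiated libraries, 25.6, 28.4 and 25.6 in Differentiated and 33.8, 43.2 and 43.8 in Lysfree. It fell by 1.51 on the log2 scale with lysine (SE 0.08), and its Lysfree level lay between the others, with a change against Differentiated of 0.67 (SE 0.13, edgeR adjusted p = 1.8e-04) that was under 2-fold. Timp3, which binds to the matrix and also blocks ADAMTS and ADAM proteases, was at 0.547, 0.593 and 0.613 FPKM in Undifferentiated, 0.587, 0.409 and 0.471 in Differentiated and 0.81, 0.65 and 0.677 in Lysfree libraries. It was called in none of the 3 comparisons, and its largest difference was Lysfree vs Differentiated (log2 0.61, SE 0.20, edgeR adjusted p = 0.02). Timp4 (chromosome 6, 115241892 to 115252205), the inhibitor known from heart and adipose tissue, had 19, 26 and 16 counts in Undifferentiated libraries, 49, 47 and 56 in Differentiated and 2, 2 and 5 in Lysfree. In FPKM these were 0.151, 0.201 and 0.17 in Undifferentiated, 0.537, 0.428 and 0.588 in Differentiated and 0.0193, 0.0178 and 0.0437 in Lysfree libraries, and the groups did not overlap. Timp4 was the single member called higher with lysine (log2 1.53, SE 0.29, edgeR adjusted p = 2.8e-07). It was called lower without lysine, by -2.59 (SE 0.55, edgeR adjusted p = 2.7e-04) against Undifferentiated and -4.12 (SE 0.41, edgeR adjusted p = 3.6e-08) against Differentiated cells. None of the 3 calls was made by limma on log2(FPKM + 1), and all 3 were made with 0.1 in place of 1. Timp4 lies within Syn2 on the opposite strand, whose exons cover 1.53% of its exonic length and whose FPKM of 0.399, 3.93 and 0.140 in the 3 groups ran in the same order. Timp3 overlaps Syn3 over 21.3% of its exonic length, and Syn3 was far below it, at 0.0130, 0.00526 and 0.00888 FPKM in the 3 groups.

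Summed over each family, Mmp and Timp transcripts were both lowest in Differentiated cells, and the ratio of Timp to Mmp transcripts was highest in Lysfree cells. The 22 Mmp genes summed to 2523 ± 33.4 FPKM (SD, n = 3) in Undifferentiated, 223 ± 3.05 in Differentiated and 655 ± 7.90 in Lysfree cells. The 19 Adamts genes summed to 276 ± 12.5, 135 ± 2.84 and 152 ± 8.70, and the 4 Timp genes to 457 ± 5.63, 51.9 ± 1.65 and 260 ± 3.13. The ratio of summed Timp to summed Mmp FPKM was 0.179, 0.181 and 0.182 in the Undifferentiated libraries, 0.228, 0.239 and 0.230 in Differentiated and 0.399, 0.405 and 0.387 in Lysfree. The 3 groups did not overlap in this ratio, which is a description of RNA over the members and was not tested. Counts on all members made up 1.30%, 0.185% and 0.466% of the library on average. Mmp2 alone carried 79.6%, 55.2% and 60.2% of the summed Mmp FPKM, and Mmp14 14.9%, 15.7% and 21.2%. The share of Mmp19 was 0.991% in Undifferentiated, 16.4% in Differentiated and 5.08% in Lysfree cells. Among the inhibitors, Timp2 carried 83.6% of the summed FPKM in Undifferentiated cells, 47.0% in Differentiated and 84.2% in Lysfree, and Timp1 carried 16.2%, 51.1% and 15.5%. Adamts1 carried 56.1%, 63.3% and 75.0% of the ADAMTS sum, while Adamts12 carried 10.0%, 15.9% and 2.05%.

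**Figure D3:**
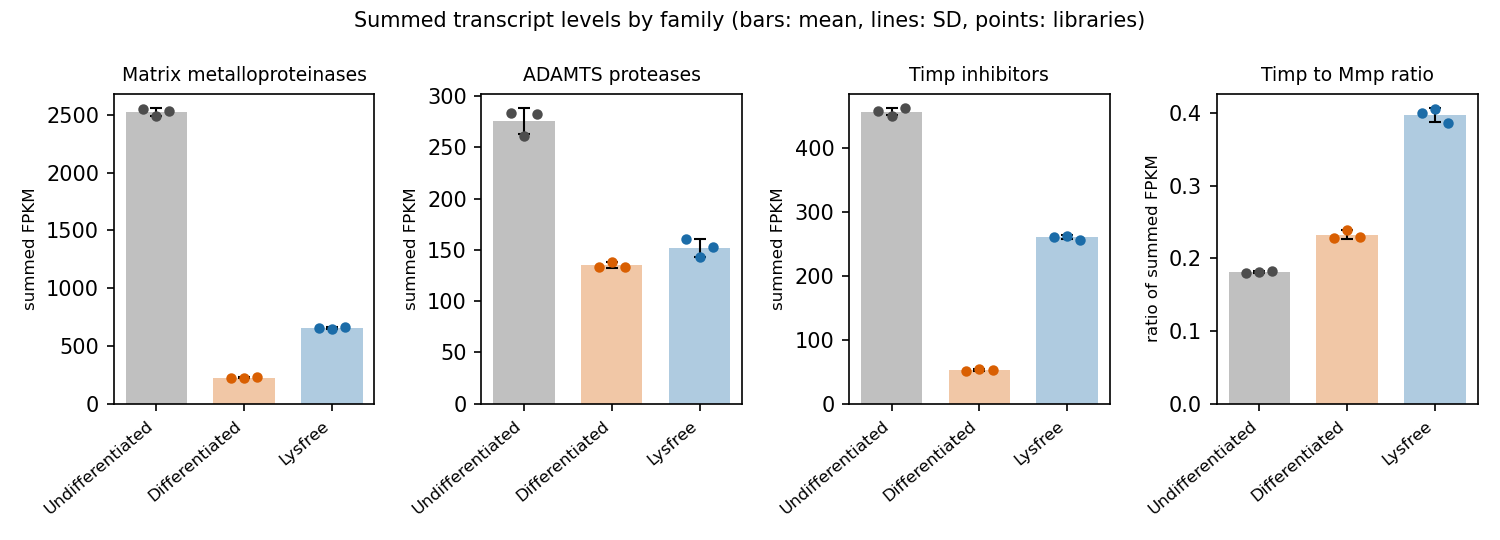
Summed FPKM of the 22 Mmp, 19 Adamts and 4 Timp genes and the ratio of summed Timp to summed Mmp FPKM, with bars for the group mean, lines for the SD and points for the 3 libraries of each group. The Mmp and Timp sums are lowest in Differentiated libraries, and the ratio is highest in Lysfree libraries, from 0.387 to 0.405.

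The remaining 18 members stayed below a mean of 1 CPM in every group. Adamts3, Adamts18, Mmp7, Mmp10, Mmp16 and Mmp20 had 0 counts in all 9 libraries, and the limit of a count of 0 is 3 counts per library. Adamts13, which cleaves von Willebrand factor, Adamts19, Adamts20, Mmp1b, Mmp8, Mmp12, Mmp21 and Mmp24 reached at most 1 count, and Mmp25 at most 3. Mmp8 is the neutrophil collagenase and Mmp12 the macrophage elastase. Mmp1b has a close copy, Mmp1a, which the table does not class as protein-coding, so reads could be split between them. Adamts8 reached 4 counts and Adamts17 reached 6. Adamts16 had 6, 9 and 10 counts in Undifferentiated libraries, 0, 0 and 1 in Differentiated and 9, 14 and 12 in Lysfree. This gene, singled out after its values were seen, was called in both comparisons with Differentiated cells, which were at least 2.54-fold lower than Undifferentiated and at least 3.80-fold lower than Lysfree cells against a floor of 3 counts per library. Limma on log FPKM made neither call of Adamts16, with either pseudocount.

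Other genes that regulate, assist or are cut by these proteases were taken from 7 lists of 59 genes. In Differentiated vs Undifferentiated, 6 of the 53 tested were called higher and 21 lower, in Lysfree vs Undifferentiated 11 higher and 15 lower of 53, and in Lysfree vs Differentiated 23 higher and 8 lower of 52. Over all genes tested, 10.4% were called higher and 11.4% lower, 5.52% and 8.76%, and 8.14% and 10.5% in the same order of comparisons. The median log2 fold changes of the lists were -0.76, -0.22 and 1.09, beside 0.02, -0.02 and -0.06 over all genes. In the list of the plasminogen system, whose protease plasmin activates several pro-Mmps, and of other inhibitors, Lysfree vs Differentiated had 6 of 9 genes higher and 2 lower. The activators Plau and Plat were higher in that comparison, by 1.87 (SE 0.24) and 1.63 (SE 0.17) on the log2 scale, and the protease inhibitor Tfpi2 was lower, by -2.79 (SE 0.37).

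Of 9 listed genes of the ADAM family, which includes sheddases that release surface proteins, 2 were higher and 3 lower in Lysfree vs Differentiated. In that comparison 8.14% of all genes tested were called higher and 10.5% lower. Adam12, also called meltrin alpha and known from muscle cell fusion, was at 12.2, 10.5 and 11.8 FPKM in Undifferentiated libraries, 24.8, 25.6 and 23.9 in Differentiated and 2.83, 2.64 and 2.59 in Lysfree, which is the order of groups seen for Timp4 and Adamts9. Its Lysfree vs Differentiated change was -3.14 (SE 0.10, edgeR adjusted p = 3.1e-16). Adam33 was also lower (log2 -1.52, SE 0.22), and Adam10 (1.42, SE 0.09) and Adam9 (1.25, SE 0.09) were higher. Of the 7 ADAMTS-like proteins, which have ADAMTS repeats and no protease domain, 4 were higher and 1 lower. Adamtsl3 was at 0.727, 0.706 and 0.919 FPKM in Undifferentiated, 0.117, 0.125 and 0.0879 in Differentiated and 1.51, 1.67 and 1.64 in Lysfree libraries, a change of 3.92 in Lysfree vs Differentiated (SE 0.21, edgeR adjusted p = 3.2e-12). Adamtsl5 was higher too (log2 1.97, SE 0.14), and papilin, Papln, with 27, 20 and 24 counts in Differentiated and 0, 0 and 4 in Lysfree libraries, was lower.

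In the list of astacins, pappalysins and procollagen C-proteinase enhancers, 4 of 7 genes tested were called higher in Lysfree vs Differentiated. Over all genes tested in that comparison, 8.14% were called higher and 10.5% lower. Pappa, which frees IGF from its binding proteins, was at 5.75, 3.79 and 5.1 FPKM in Undifferentiated libraries, 0.961, 1.01 and 0.932 in Differentiated and 11, 8.91 and 9.27 in Lysfree (log2 3.39, SE 0.12, edgeR adjusted p = 2.2e-15). Pcolce, the enhancer of procollagen C-proteinase, was higher by 1.33 (SE 0.09). Among the substrates, 5 of 12 were higher and 1 lower. Fibronectin, Fn1, was at 417, 331 and 392 FPKM in Undifferentiated libraries, 61.7, 63.2 and 50.9 in Differentiated and 703, 726 and 728 in Lysfree (Lysfree vs Differentiated log2 3.68, SE 0.09, edgeR adjusted p = 5.0e-18). Vwf was higher from a low level, with 82, 117 and 94 counts in Lysfree and 0, 5 and 4 in Differentiated libraries. The uptake receptors Lrp1, which clears Mmp and Timp complexes, and Mrc2, which takes up collagen fragments, were both higher in Lysfree vs Differentiated, by 1.68 (SE 0.11) and 1.71 (SE 0.10). Of 3 activating convertases tested, 1 was lower, Pcsk6, and the lower substrate was Comp. Both averaged below 1 CPM in Differentiated and in Lysfree cells and are named after their values were seen.

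**Figure D4:**
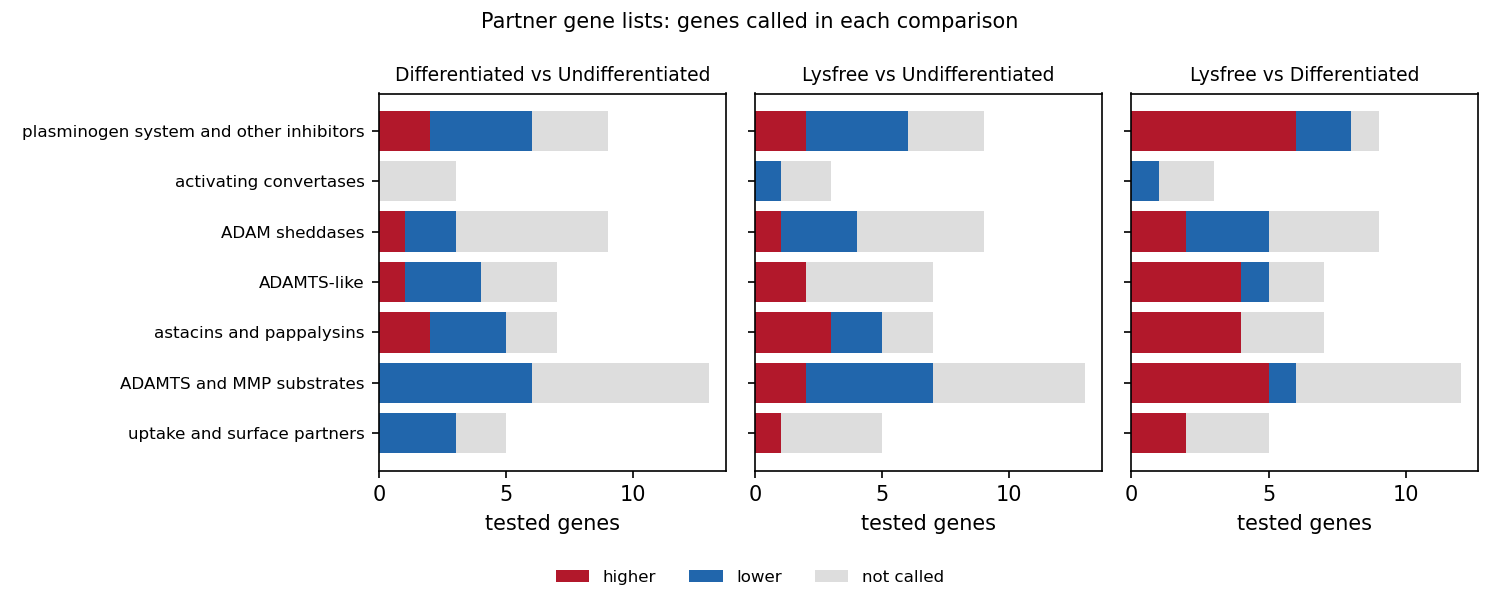
Number of tested genes called higher, called lower or not called (edgeR) in 7 lists of genes that work with or are cut by the Mmp and Adamts proteases, for the 3 comparisons, which share libraries. Lower calls prevail in Differentiated vs Undifferentiated (21 lower and 6 higher in all) and higher calls in Lysfree vs Differentiated (23 higher and 8 lower).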

How the data were processed

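The authors discarded paired-end reads that were of low quality or held adaptor sequence, mapped the rest to mm10 and counted the reads on each gene; per the labels, the submitters' processing notes name HISAT2 2.0.5 and featureCounts 1.5.0-p3, without a strand setting. The counts were deposited without normalization, with a second table by the authors in FPKM. Every column matched the sample name of 1 library. Counts on a gene were tested with edgeR 4.0.16 (TMM, quasi-likelihood F test, Benjamini-Hochberg) in R 4.3.3, for 6 libraries at a time, leaving out genes with 0 counts in all 6. A gene was called at an adjusted p under 0.05 and at least 2-fold, and a group whose libraries each held 3 counts or fewer was at the floor, which covers counting error only. Adjusted p values of 0 are printed as too small to hold. With 3 libraries per group, 0.1 is the smallest two-sided p of an exact permutation test, and the edgeR model was used instead.

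Members with a mean of at least 1 CPM in any group were named with their values, and the rest with their highest count. From the 7 lists of other genes, the 2 largest rises and 2 largest falls among called genes of at least 1 CPM in Lysfree vs Differentiated were named. A gene that this rule names and an overlapping neighbour are not reported here. Members and lists were chosen with earlier results of these data known. The alternatives were DESeq2 1.42.0, median-of-ratios size factors, no scaling beyond the library size, the filterByExpr filter, a minimum of 10 counts per library, a joint fit of 9 libraries, a term for the replicate number, no fold threshold, limma 3.58.1 on log2(FPKM + 1) and log2(FPKM + 0.1), and leaving out each library. Coordinates are those of the deposited tables (GRCm38), overlaps used GENCODE vM21, in which 44 of the 45 members had the same start and end, and sequences came from RefSeq.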

Additional observations from a re-analysis of the deposited data

Results flagged for a closer look

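For 3 genes the differentiation medium went with opposite signs against Undifferentiated cells with and without lysine, both at an edgeR adjusted p under 0.05, and Lysfree vs Differentiated was called. Both changes of a gene share the Undifferentiated libraries, and the difference between them is the Lysfree vs Differentiated change. For Timp4 this was -4.12 on the log2 scale, between 1.53 with lysine and -2.59 without it. For Adamts9 it was -1.69, between 0.60, under 2-fold, and -1.08. For Mmp28 it was 1.74, between -0.33, under 2-fold, and 1.42. Timp4 rested on at most 56 counts in a library, and limma on log2(FPKM + 1) called it in none of the comparisons, nor did it make the Lysfree vs Undifferentiated call of Adamts9. The opposite-strand neighbours Syn2 and 1700020L24Rik had the group order of Timp4 and Mmp28. Their part in these values was not tested.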

How the results depend on the processing

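Members called ranged from 15 to 25 in Differentiated vs Undifferentiated (20 as reported), from 14 to 24 in Lysfree vs Undifferentiated (18) and from 11 to 21 in Lysfree vs Differentiated (18), where the lowest count of 11 came from limma on log2(FPKM + 1). The 25 came from dropping the fold threshold, which keeps the same fit and changes only the rule for a call. Leaving out 1 library at a time gave 19 to 20, 18 to 19 and 18 members. Samples that share a replicate number did not deviate together in every pair, and no label says that the numbers mark a batch. With the replicate number as a block, 20, 18 and 18 members were called.

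Of 1327 alternative values of the expressed members and Adamts16, 1270 kept their direction and their side of the thresholds, 25 lost the call, 17 gained it and 15 changed sign, none of these 15 from a call. Dropping the fold threshold is among these alternatives and keeps the same fit, so it could change no sign and lose no call. It gave 14 of the gained calls. Of the lost calls, 15 were lost by limma on log2(FPKM + 1), in Timp4 (all 3 comparisons), Adamts7, Adamts16 and Mmp15 (2 each) and Adamts6, Adamts9, Adamts14, Mmp9, Mmp13 and Mmp17 (1 each). Mmp11 in Lysfree vs Undifferentiated (0.01 as reported) was -0.009 by DESeq2 and with its size factors, -0.026 with the expression filter, -0.050 with at least 10 counts, -0.011 with the replicate block, -0.058 and -0.059 by limma with 1 and 0.1 added, and -0.085 to 0.149 with 1 library left out. Adamts15 in Differentiated vs Undifferentiated (0.02) was -0.009 with library sizes alone and -0.046 to 0.071 with 1 library left out. In Lysfree vs Differentiated, Mmp19 (-0.07) was 0.000 with library sizes alone, Mmp15 (-0.48) ranged from -0.792 to 0.137 and Mmp27 (1.01) from -0.006 to 2.260 with 1 library left out. The cause was not tested.

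Over all genes, at least 10 counts in every library, no fold threshold and limma on log2(FPKM + 1) gave 3488, 11260 and 2726 calls in Differentiated vs Undifferentiated (5329 as reported), 2244, 8428 and 1474 in Lysfree vs Undifferentiated (3426) and 2891, 9280 and 2198 in Lysfree vs Differentiated (4507). In the lists of other genes, no fold threshold gave 40 calls in Lysfree vs Undifferentiated, and limma on log2(FPKM + 1) gave 14 there (26 as reported) and 16 in Lysfree vs Differentiated (31). Depth limits the 18 members below 1 CPM, for which a change could go undetected.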
